A study of Homo sapiens with 4 samples.

Results

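The clustered protocadherins are cell-surface proteins of the cadherin family that are encoded side by side on chromosome 5 in an alpha, a beta and a gamma cluster. Every gene whose symbol is PCDHA, PCDHAC, PCDHB, PCDHGA, PCDHGB or PCDHGC followed by a number was taken, which gave 54 of the 59533 gene symbols analysed, 16 in the alpha, 16 in the beta and 22 in the gamma cluster. Their expression was read from RNA sequencing of 4 libraries of 2 human cancer cell lines, HCC1937 (breast cancer) and THP-1 (monocytic leukaemia). Per the labels, both lines lack p53 and the cells of all 4 libraries carry an introduced mutant of that tumour suppressor, p53-R282W. Each line has 1 library of untreated cells and 1 of cells treated with DAC, taken here as decitabine, a cytidine-like drug that traps DNA methyltransferases, at 0.3 µM for 5 days in HCC1937 and at 5 µM for 2 days in THP-1. Dose and time therefore differ between the lines, no library without the mutant was included, and whether the cells were 1 clone or a pool is not given in the sources used here. Each group is a single library, which leaves no replicate error to test against, and no p-values are printed.

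A clustered protocadherin of the alpha or gamma cluster is made by splicing 1 of many variable first exons, each with its own promoter, to a set of constant exons that the whole cluster shares. Beta genes have no constant exons and stand alone. The variable exon encodes the extracellular cadherin repeats, which bind the same isoform on a neighbouring cell, and the constant exons encode the common cytoplasmic tail. In neurons each cell switches on a few promoters, with CTCF and cohesin looping chosen promoters to enhancers, and DNA methylation of a promoter goes with its silence. The last genes of the alpha and gamma clusters (PCDHAC1, PCDHAC2, PCDHGC3, PCDHGC4 and PCDHGC5, called C-type) are regulated differently and are used more evenly across neurons. In tumours the region is known as one where promoter methylation often spreads over many neighbouring genes.

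On hg38 the alpha genes lie at chr5:140786136-141012347, the beta genes at chr5:141051135-141249365 and the gamma genes at chr5:141330571-141512981, all on the + strand (GENCODE 29). All 22 gamma genes contain the same 2181 exon bases, and bases shared with other members make up 27.6% to 64.4% of their exons. The 15 coding alpha genes contain the same 2866 bases, and PCDHA14, a transcribed pseudogene, lies wholly within exons of other members. No beta gene shares an exon with another member. Beta genes nevertheless resemble each other in part. The share of 50-base words of a gene's transcripts found in no other annotated gene had a median of 83.6% over the beta cluster, from 98.6% in PCDHB1 down to 50.7% in PCDHB8. It was 64.6% in PCDHB10, 79.0% in PCDHB2 and 87.2% in PCDHB14, so the split of reads among beta copies is uncertain for PCDHB8 above all. How reads in shared exons were assigned is not given in the sources used here. In 10 beta, 8 alpha and 1 gamma genes an exon also overlaps an antisense gene. Exons of PCDHB8, PCDHB9, PCDHB14, PCDHB15 and PCDHB16 overlap a noncoding gene on the same strand. Free of this overlap are 2519 of 2740 exon bases in PCDHB8 and 4659 of 4828 in PCDHB14. All 15 overlapping noncoding genes, of either strand, were listed at 0 in both HCC1937 libraries.

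Most promoters of these genes carry a known conserved element with the core CGCT, and it is shown because most members have it in common outside their coding exons. RefSeq promoter windows (GRCh38.p14, 250 bases before to 50 after a start) were found for 47 of the 54 members. Core CGCT stood on the gene's strand between 110 and 5 bases before the start in 44 of these 47, against 29.7% of all 35116 promoter windows. On either strand and anywhere in the window CGCT was present in 46 of 47 and in 70.0% of all windows. A match of these 4 letters need not be the element, so 44 is a count of matches and not of elements. The bases next to the core differed by cluster. ATGTCGCT, on either strand, was in 9 of 13 alpha windows, GTGGCGCT in 13 of 14 beta windows and GCCGCTGTT in 7 of 20 gamma windows, and none of these 3 words was in a window of either other cluster. They are in 0.234%, 1.15% and 0.322% of all windows. The 3 words were chosen after the sequences were seen. The following 30-base stretches, 5′ to 3′ with the core in capitals (where a window holds several, the one nearest to 55 bases before the start), are of alpha members (PCDHA4 was lower and PCDHA6 and PCDHA10 were higher with DAC in HCC1937, as given below with the values).
PCDHA4 (chr5:140806982-140807011): agccacatgatgtCGCTctttaccacaaaa
PCDHA6 (chr5:140827900-140827929): agccgcatgatgtCGCTgtctaccatgaag
PCDHA10 (chr5:140855844-140855873): agccaccggatgtCGCTgtcgtccacaaaa

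The beta stretches are of 2 members that were lower (PCDHB2, PCDHB9) and 2 that were higher (PCDHB3, PCDHB5) with DAC in HCC1937. All 4 promoters hold the beta word GTGGCGCT.
PCDHB2 (chr5:141094547-141094576): agacgcggggtggCGCTgcagccttagaag
PCDHB9 (chr5:141187077-141187106): agccacaaggtggCGCTgcagactgaagag
PCDHB3 (chr5:141100396-141100425): gaacgcatggtggCGCTgttgactaagaag
PCDHB5 (chr5:141135182-141135211): ggacgcctggtggCGCTgcaggctaagagt

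The gamma stretches are of 2 members that were lower (PCDHGA1, PCDHGB1) and 3 that were higher (PCDHGA2, PCDHGA10, PCDHGA11).
PCDHGA1 (chr5:141330406-141330435): ggactgtgggcgcCGCTgttcactaatctg
PCDHGB1 (chr5:141350028-141350057): aacctctgggcgcCGCTgtcgaccaaaagg
PCDHGA2 (chr5:141338706-141338735): ggcctctgagcgtCGCTgttgaccacctaa
PCDHGA10 (chr5:141412934-141412963): ggactctgagcgcCGCTgttcacctactag
PCDHGA11 (chr5:141420975-141421004): gggctctaggcgcCGCTgctcaccaatcag

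Whole windows are shown for 4 members with the highest levels in HCC1937, with every CGCT of the + strand in capitals. PCDHB8 and PCDHB14 are the members that passed the 2-fold rule below, PCDHGB5 is the highest variable gamma gene and PCDHGC3 the highest gene of all.
PCDHB8 (chr5:141177540-141177839, + strand): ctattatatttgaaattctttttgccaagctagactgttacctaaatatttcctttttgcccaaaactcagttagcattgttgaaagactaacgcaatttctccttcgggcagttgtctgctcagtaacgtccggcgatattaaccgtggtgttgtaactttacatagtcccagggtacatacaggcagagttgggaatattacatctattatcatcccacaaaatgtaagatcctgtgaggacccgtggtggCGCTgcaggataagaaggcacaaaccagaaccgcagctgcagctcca
PCDHB14 (chr5:141223093-141223392, + strand): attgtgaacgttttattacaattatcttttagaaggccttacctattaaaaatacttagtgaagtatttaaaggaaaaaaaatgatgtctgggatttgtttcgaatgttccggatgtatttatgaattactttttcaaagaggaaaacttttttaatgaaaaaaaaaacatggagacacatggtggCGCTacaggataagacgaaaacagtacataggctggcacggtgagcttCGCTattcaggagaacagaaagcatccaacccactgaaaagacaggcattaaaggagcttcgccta
PCDHGB5 (chr5:141397697-141397996, + strand): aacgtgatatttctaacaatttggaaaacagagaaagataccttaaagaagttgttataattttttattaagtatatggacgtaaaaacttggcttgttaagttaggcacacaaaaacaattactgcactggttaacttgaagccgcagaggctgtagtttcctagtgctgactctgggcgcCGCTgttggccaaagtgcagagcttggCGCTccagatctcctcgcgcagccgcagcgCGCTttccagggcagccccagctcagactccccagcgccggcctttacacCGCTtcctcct
PCDHGC3 (chr5:141475716-141476015, + strand): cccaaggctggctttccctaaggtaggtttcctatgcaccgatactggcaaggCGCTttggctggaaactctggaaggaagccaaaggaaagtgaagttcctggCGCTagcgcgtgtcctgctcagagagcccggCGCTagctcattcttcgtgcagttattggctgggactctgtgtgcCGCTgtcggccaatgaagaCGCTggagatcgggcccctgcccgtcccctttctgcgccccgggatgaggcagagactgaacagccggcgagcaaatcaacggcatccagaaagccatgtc
In PCDHB8 the core falls just after the RefSeq start, so it lies outside the range searched. The windows hold few CG pairs, the main sites of DNA methylation in mammals. Over the 43 members that are not C-type the median was 7 CG pairs in 300 bases (2 to 16), over the 4 C-type members 20.5 (15 to 27), and over all promoter windows 14. Members higher, lower and neither in HCC1937 by their counting interval had medians of 8, 7 and 7 CG pairs. CCCTC, a short word of the CTCF site, was on either strand in 12 of 47 windows and in 71.2% of all windows. None of the 14 beta windows had it. A search for this word alone can miss CTCF sites, and whether a window holds or binds CTCF was not tested.

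In untreated HCC1937 cells a few genes carried most of the family's signal. Of the 5 highest, PCDHGB5, PCDHB8, PCDHB14 and PCDHB2 were lower in the DAC library and PCDHGC3 was listed higher. Several genes listed at 0 untreated appeared at low levels with DAC. Levels are in FPKM, which divides reads by exon length and library depth. Depth, estimated in units of 1000000 counted reads from the spacing of the values, was 18.7 to 19.7 per library. At that depth a listed 0 allows an expected count of up to 3 reads (about the upper 95% limit of a count of 0), which is 0.0321 FPKM for a 5 kb gene in HCC1937. A ratio is given with its exact (Clopper-Pearson) 95% interval from estimated reads, which covers counting error only and not differences between cultures. For summed alpha or gamma reads the interval is too narrow if a read in a shared exon was listed for several genes. In bulk RNA fewer cells using a gene and less RNA per cell cannot be told apart. Of the 54 members, 6 reached 1 FPKM in the untreated HCC1937 library and 3 in the DAC library. At 0.1 FPKM the order was the other way, with 13 untreated and 27 with DAC. Members listed at 0 numbered 19 untreated and 10 with DAC. The 5 highest members made up 75.6% of the summed family level untreated and 60.9% with DAC.

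**Figure D1:**
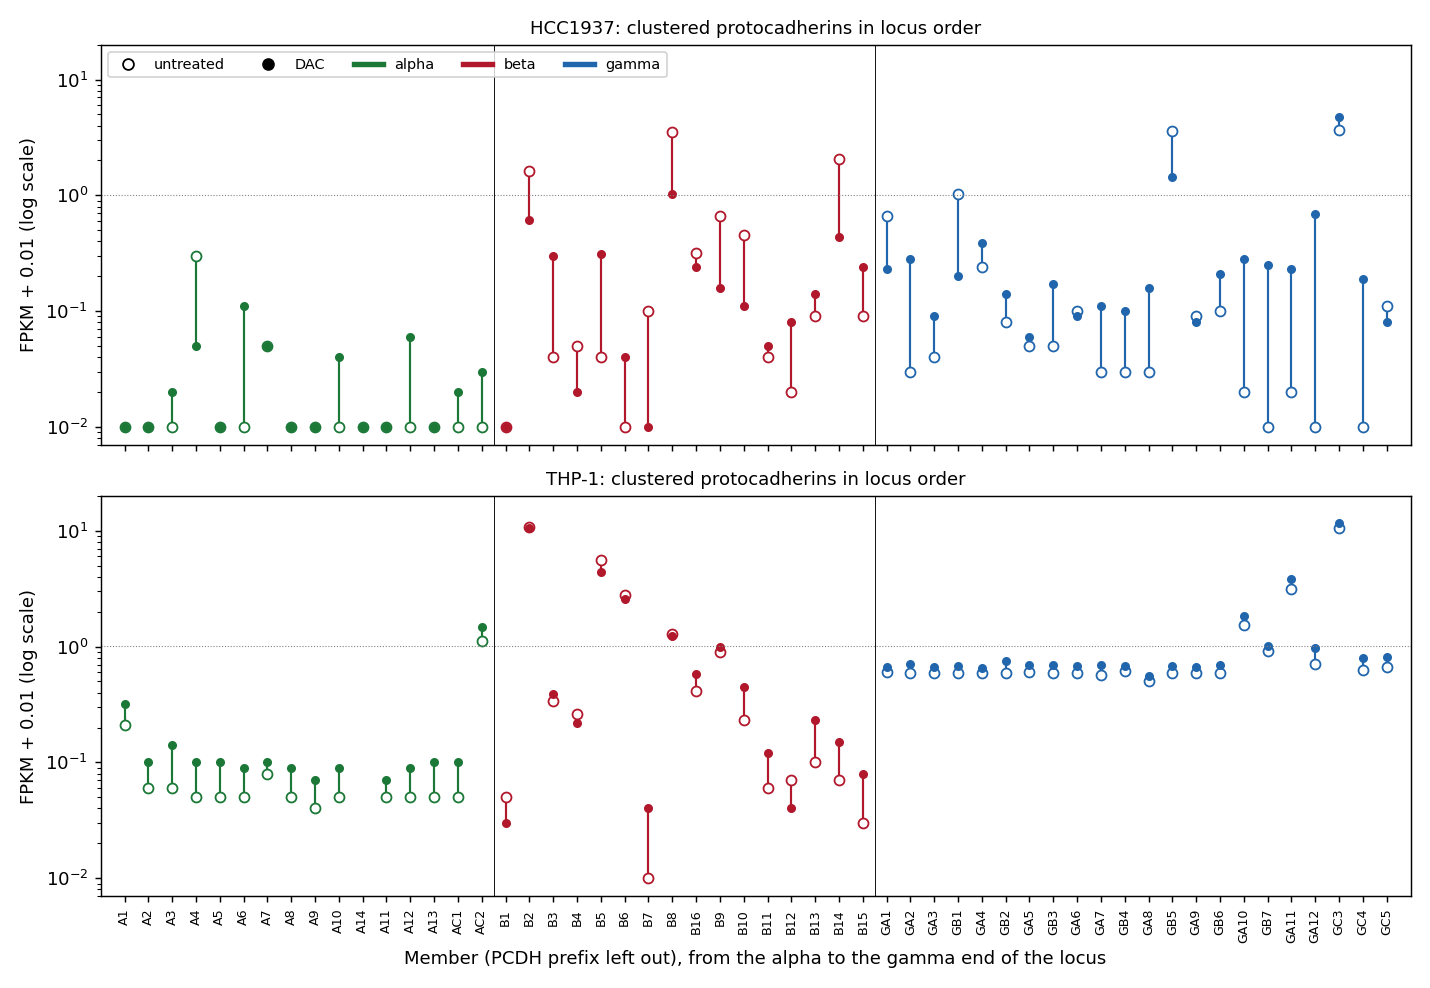
Level of each of the 54 members in locus order, from the alpha (green) through the beta (red) to the gamma cluster (blue), in HCC1937 above and THP-1 below. The vertical axis is FPKM + 0.01 on a log scale, open circles are the untreated and filled circles the DAC library, and the dotted line marks 1 FPKM. In HCC1937 the tall open circles (PCDHB2, PCDHB8, PCDHB14, PCDHGB1, PCDHGB5) stand above their filled partners and many low open circles stand below theirs, while in THP-1 most gamma genes share 1 level.

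The summed level of the beta cluster was lower in HCC1937 with DAC, through its highest genes, while 7 members were higher and 8 lower and the median went from 0.08 to 0.14 FPKM. The 3 highest genes held 80.1% of the untreated sum. Its members summed to 9.01 FPKM untreated and 3.62 with DAC, a log2 difference of -1.12 on log2(FPKM + 1), and the ratio of its estimated reads was 0.402 (interval 0.346 to 0.465). PCDHB8 (ENSG00000120322.3, chr5:141177790-141180529) stood at 3.54 FPKM untreated and 1.01 with DAC, a log2 difference of -1.18 and a ratio of 0.285 (0.207 to 0.393). PCDHB14 (ENSG00000120327.6, chr5:141222932-141227759) stood at 2.06 and 0.43 FPKM, a log2 difference of -1.10 and a ratio of 0.209 (0.144 to 0.297). These were the only members at least 2-fold lower on log2(FPKM + 1) among the 6 that reached 1 FPKM in either library, and 0 members were at least 2-fold higher. Over all 14058 genes that reached 1 FPKM, 1.44% were lower and 10.3% higher by the same rule. Of the 6 members, PCDHB2, PCDHB14 and PCDHGB1 passed the minimum through the untreated library only, so their difference had to point downward.

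Below the 2-fold rule, more beta genes were lower beyond counting error. PCDHB2 stood at 1.62 FPKM untreated and 0.60 with DAC, a ratio of 0.370 (0.256 to 0.519). PCDHB9 stood at 0.65 and 0.15 FPKM, a ratio of 0.231 (0.108 to 0.420). PCDHB10 stood at 0.44 and 0.10 FPKM, a ratio of 0.227 (0.075 to 0.549). PCDHB9 and PCDHB10 lie next to each other after PCDHB8 and PCDHB16, and PCDHB16 was at 0.31 and 0.23 FPKM, a ratio of 0.742 whose interval of 0.415 to 1.37 spans 1. PCDHB7, at 0.09 FPKM untreated and listed at 0 with DAC, rested on 6 reads. Other beta genes were higher. PCDHB5 stood at 0.03 and 0.30 FPKM, a ratio of 10 (2.29 to 84). PCDHB3 stood at 0.03 and 0.29 FPKM, a ratio of 9.67 (2.15 to 79.9), and PCDHB15 at 0.08 and 0.23 FPKM, a ratio of 2.88 (1.06 to 8.77) whose interval spans 1 under both other scalings. The remaining beta genes, PCDHB1, PCDHB4, PCDHB6, PCDHB11, PCDHB12 and PCDHB13, were at 0.13 FPKM or less in both libraries, with intervals that span 1 wherever reads were present.

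The gamma cluster kept nearly the same summed level in HCC1937, 9.75 FPKM untreated and 10.04 with DAC, while its members differed in both directions. The ratio of its reads was 1.07 (0.979 to 1.17) as deposited, and the log2 difference of 0.04 turned to -0.22 when scaled by the median of gene ratios and to -0.24 when scaled by the upper quartile. PCDHGC3 (ENSG00000240184.6, chr5:141475947-141512979), a C-type gene, was the highest member in both libraries at 3.66 and 4.78 FPKM. Its ratio of 1.31 (1.14 to 1.5) was within counting error under both other scalings. PCDHGB5 (ENSG00000276547.1, chr5:141397987-141512979) stood at 3.55 and 1.43 FPKM, a ratio of 0.403 (0.326 to 0.496). PCDHGB1 stood at 1.02 and 0.19 FPKM, a ratio of 0.186 (0.104 to 0.316), and PCDHGA1 at 0.65 and 0.22 FPKM, a ratio of 0.338 (0.210 to 0.540). These 3 were the only gamma genes with an interval wholly below 1.

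Against them stood 12 gamma genes with an interval wholly above 1. PCDHGA12 had no reads untreated and 0.68 FPKM (61 reads) with DAC, the third highest gamma gene of that library. Its neighbours at the end of the variable gamma genes did likewise. PCDHGA10 stood at 0.01 and 0.27 FPKM, from 1 to 34 reads. PCDHGB7 was listed at 0 and stood at 0.24 FPKM, with 22 reads. PCDHGA11 stood at 0.01 and 0.22 FPKM, from 1 to 24 reads. This run of 4 adjacent genes was singled out after its values were seen. Farther on, the C-type PCDHGC4 was listed at 0 and stood at 0.18 FPKM (17 reads), while the C-type PCDHGC5 stood at 0.10 and 0.07 FPKM with an interval that spans 1. PCDHGA2 stood at 0.02 and 0.27 FPKM, a ratio of 13.5 (3.56 to 57.6), and PCDHGA8 at 0.02 and 0.15 FPKM, a ratio of 7.5 (2.43 to 41.5). PCDHGB3, PCDHGA7, PCDHGB4 and PCDHGB6 had intervals that begin at 1.06 to 1.10 and span 1 under both other scalings.

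The alpha cluster was nearly silent in HCC1937. Its 16 members summed to 0.33 FPKM untreated and 0.30 with DAC. Their estimated reads were 77 and 43, a ratio of 0.558 (0.375 to 0.821), and 73 and 10 of these were of PCDHA4. PCDHA4 (ENSG00000204967.10, chr5:140806929-141012344) held most of the untreated sum, at 0.29 FPKM, and stood at 0.04 FPKM with DAC, a ratio of 0.138 (0.063 to 0.266). Without PCDHA4 the log2 difference of the summed level turned from -0.03 to 0.28. PCDHA6, listed at 0 untreated, stood at 0.10 FPKM with DAC (11 reads), and PCDHA10, likewise at 0, at 0.03 FPKM (9 reads). PCDHAC1 and PCDHAC2, the C-type genes, had no reads untreated and stood at 0.01 and 0.02 FPKM in the treated library, on 1 and 2 reads. PCDHA7 stood at 0.04 FPKM in both libraries, and 8 alpha members were listed at 0 in both.

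**Figure D2:**
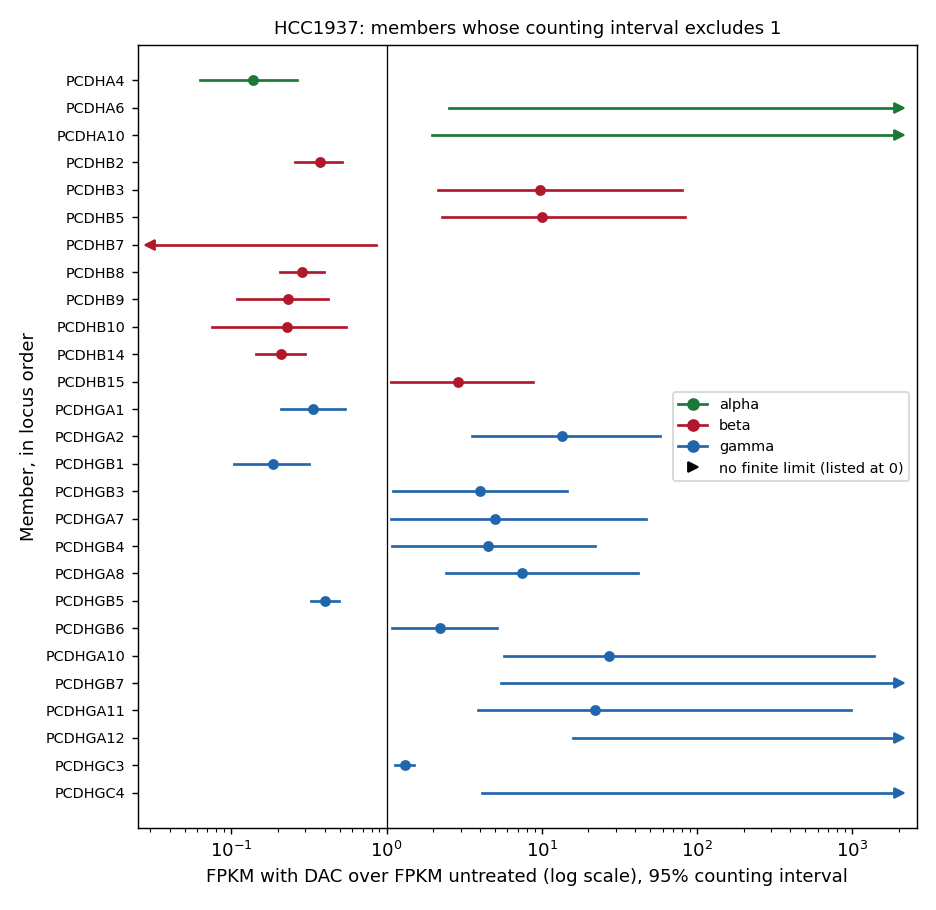
Ratio of the DAC to the untreated level (log axis) for the 27 members of HCC1937 whose 95% counting interval excludes 1, in locus order and coloured by cluster. Points are ratios of FPKM, bars the intervals from estimated reads, and arrows mark an interval without a finite limit because 1 library is listed at 0. The 10 lower members have points from 0.138 (PCDHA4) to 0.403 (PCDHGB5) besides PCDHB7, and 12 of the 17 higher members are gamma genes.

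Across the 3 clusters of HCC1937, 10 members had an interval wholly below 1 and 17 wholly above 1, of 45 with at least 1 read. These are 22.2% and 37.8%. By value alone, 29 members were higher and 15 lower, beside 68.8% and 28.6% of all genes above 0. Among the 18313 genes of the table up to the highest level of a member, 4.90% were wholly below and 31.6% wholly above. The share of lower members was above that background and the share of higher members near it. All 10 lower members were lower under all 3 scalings, whereas 11 of the 17 higher members were, so the split of 17 higher to 10 lower was 11 to 10 with either of the other scalings. The background under these scalings was 9.84% and 10.5% lower and 23.0% and 22.6% higher. The directions were also set beside the untreated level, with a cut at 0.2 FPKM that was not planned. Of the 12 members at 0.2 FPKM or more untreated, 9 were wholly below 1 and 1 (PCDHGC3) wholly above, where 8.31% and 41.9% of 8504 genes from 0.2 FPKM to the highest untreated level of a member were. The other 2, PCDHB16 and PCDHGA4, had intervals that span 1, and PCDHGA4 stood at 0.23 FPKM untreated and 0.38 with DAC. Of the 33 members below 0.2 FPKM that had a read, 16 were wholly above 1 and 1 (PCDHB7) wholly below, where 27.8% and 0.45% of 9990 such genes were. The 12 summed to 18.02 FPKM untreated and 9.56 with DAC, and the 42 below 0.2 FPKM to 1.07 and 4.40. The split uses the untreated library, which is also the denominator of the ratio. Sorting on it by itself favours lower ratios above the cut and higher ratios below it.

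**Figure D3:**
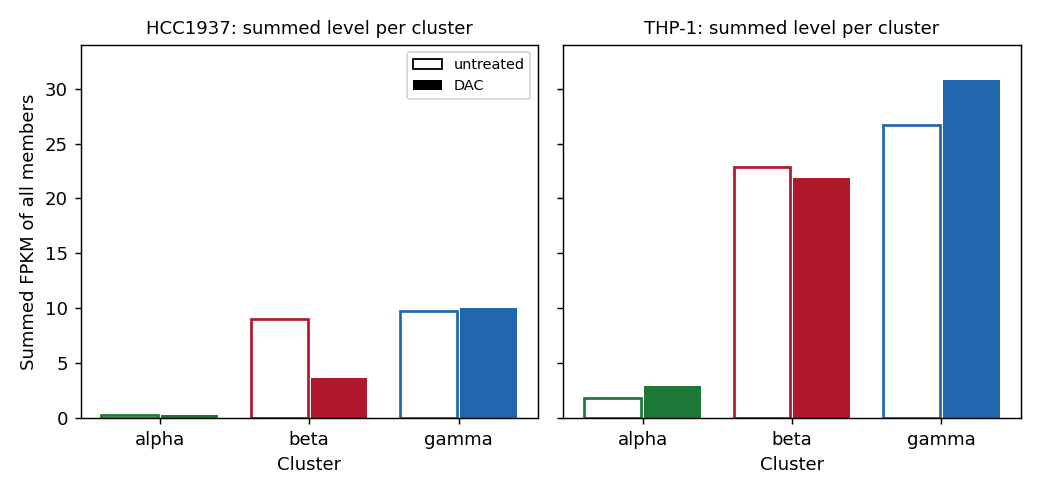
Summed FPKM of all members of a cluster, untreated (open bars) and with DAC (filled bars), in HCC1937 (left) and THP-1 (right), 1 library per bar. In HCC1937 the beta sum is 9.01 untreated and 3.62 with DAC while the gamma sum is 9.75 and 10.04, and in THP-1 the beta sum is 22.9 and 21.9.

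In THP-1 the listed sums of all 3 clusters were above those of HCC1937, on the differing scales given below. Listed lower in untreated THP-1 than in untreated HCC1937 were PCDHA4, PCDHB7, PCDHB8, PCDHB10, PCDHB14, PCDHB15, PCDHGA1, PCDHGB1 and PCDHGB5. No member was 2-fold higher or lower among the 9 that reached 1 FPKM, where 1.14% and 0.364% of 12075 genes were. PCDHB2, which was lower in HCC1937, was the highest member untreated, at 10.9 FPKM, and stood at 10.5 with DAC, a ratio of 0.968 (0.879 to 1.06). PCDHB5 stood at 5.56 and 4.37 FPKM, a ratio of 0.786 (0.672 to 0.919), the only member of THP-1 wholly below 1 as deposited (PCDHB2 joined it under median-of-ratios scaling). Of the 53 members with values, 13.2% (7) were wholly above 1 and 1.89% (1) wholly below, against 27.5% and 4.96% of 11846 genes up to the highest level of a member. Under median-of-ratios scaling 3 were above and 2 below (19.5% and 8.51% of those genes), and under upper-quartile scaling 5 and 1 (22.7% and 6.8%). At 0.2 FPKM or more untreated, 4 of 33 members were above and 1 below, where 35.0% and 6.14% of genes were, and under 0.2 FPKM 3 of 20 were above and 0 below, where 14.9% and 1.53% of genes were. The read estimates behind these intervals use GENCODE 29 lengths, from which the lengths behind the THP-1 values may differ. PCDHB6 stood at 2.77 and 2.56 FPKM and PCDHB8 at 1.27 and 1.22, both with intervals that span 1. PCDHB9, just under the minimum, stood at 0.89 and 0.99 FPKM. The beta sum was 22.9 FPKM untreated and 21.9 with DAC (ratio of reads 0.964, 0.900 to 1.03). The lower-level beta genes PCDHB10 (0.22 and 0.44 FPKM) and PCDHB13 (0.09 and 0.22 FPKM) had intervals wholly above 1, and PCDHB10 lost this under both other scalings. PCDHB14, at 2.06 FPKM in untreated HCC1937, was at 0.06 and 0.14 FPKM here.

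The gamma and alpha genes of THP-1 clustered at 1 common level each. In the untreated library 10 of 22 gamma genes were listed at exactly 0.58 FPKM, and 15 lay within 10% of that median, from 0.56 to 0.62. With DAC the median was 0.69 FPKM and 14 lay within 10% of it. In HCC1937 the same 22 genes ran from 0 to 3.66 FPKM with a median of 0.04, and no such common value appeared. Of 15 alpha genes with THP-1 values (PCDHA14 has none), 9 were listed at exactly 0.04 FPKM untreated. All 22 gamma and all 15 alpha genes were higher in the DAC library, against 64.3% of all genes above 0 (33.1% were lower). These values are not independent of each other, since the genes share 2181 or 2866 exon bases, and the part that shared exons have in the common level and in its shift was not tested. Of these genes PCDHA3, PCDHA4, PCDHAC2, PCDHGA11 and PCDHGC3 had intervals wholly above 1. PCDHA3 and PCDHA4 kept them under both other scalings, with 7 to 24 reads each. The call of PCDHA4 depends on its exon length of 13440 bases, from which its reads were estimated. PCDHA5, PCDHA13 and PCDHAC1, with 7114, 5354 and 6943 bases, had the same 0.04 and 0.09 FPKM and intervals that span 1.

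Above the common level stood the C-type PCDHGC3, at 10.5 FPKM untreated and 11.6 with DAC, and the run of genes at the end of the variable gamma exons. PCDHGA11 stood at 3.12 and 3.81 FPKM, PCDHGA10 at 1.54 and 1.82, PCDHGB7 at 0.90 and 1.00, and PCDHGA12 at 0.70 and 0.97. Untreated, PCDHGA12 was little above the common level, with 66 estimated reads beside 64 of PCDHGC5. These are the 4 adjacent genes that were at 0 to 0.01 FPKM in untreated HCC1937 and at 0.22 to 0.68 FPKM in its DAC library. PCDHGC4 (0.62 and 0.78 FPKM) and PCDHGC5 (0.66 and 0.81 FPKM) lay close to the common level. In the alpha cluster PCDHAC2 was the highest at 1.11 and 1.48 FPKM, followed by PCDHA1 at 0.20 and 0.31, while PCDHAC1 was at 0.04 and 0.09 FPKM. The sum was 1.87 and 2.90 FPKM for the alpha cluster and 26.7 and 30.8 FPKM for the gamma cluster. The ratios of estimated reads were 1.6 (1.35 to 1.88) and 1.16 (1.1 to 1.21), over genes that share exons. Both intervals are too narrow if reads in shared exons were listed for several genes. PCDHGB5, PCDHGB1 and PCDHGA1, the gamma genes that were lower in HCC1937, were at 0.58, 0.58 and 0.59 FPKM untreated, at the common level.

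**Figure D4:**
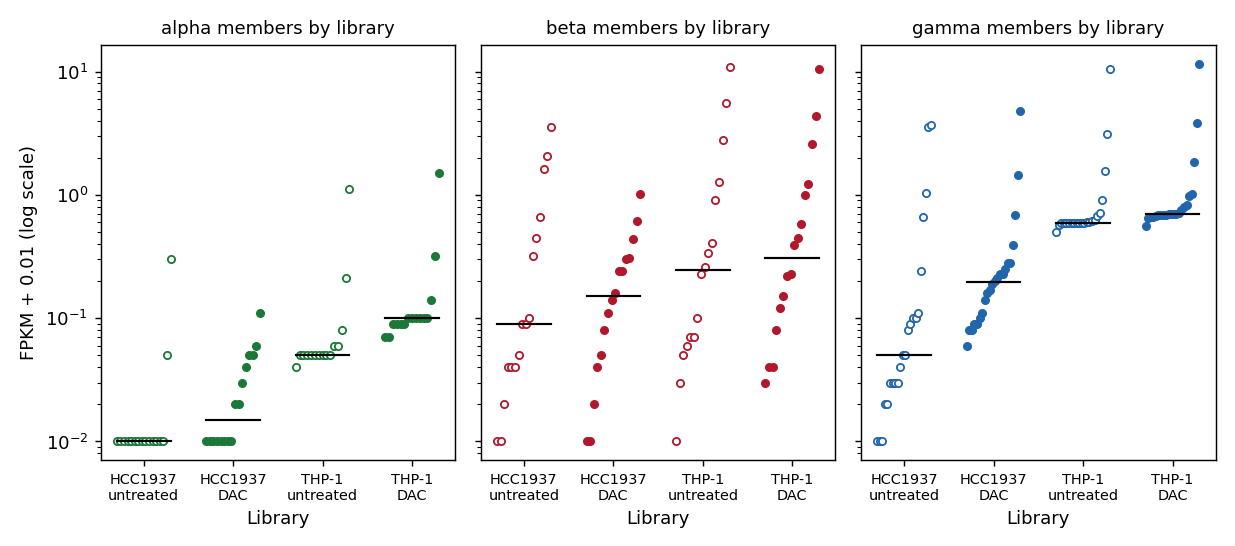
Level of every member in each of the 4 libraries, sorted from low to high within a library, for the alpha, beta and gamma clusters (FPKM + 0.01 on a log axis, open circles untreated, filled circles DAC, bars the medians). The gamma members of THP-1 form a plateau with medians of 0.58 and 0.69 FPKM and the alpha members one at 0.04 and 0.09, while the beta members of both lines and the gamma members of HCC1937 spread out.

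Levels between the lines can be set side by side only roughly, because the THP-1 columns hold values for 23440 of the 59533 symbols. The scales differ too, as all listed FPKM summed to 291006 and 282069 in HCC1937 (untreated and DAC) and to 449365 and 446156 in THP-1. The THP-1 gamma sum also includes the common level of most gamma genes, which did not appear in HCC1937. The part of either in the higher THP-1 sums was not tested. PCDHGC3 was among the 2 highest members in all 4 libraries. PCDHB2 and PCDHB8 were the other members at 1 FPKM or more in both untreated libraries. The remaining members at that level were PCDHB14, PCDHGB1 and PCDHGB5 in HCC1937, and PCDHB5, PCDHB6, PCDHGA10, PCDHGA11 and PCDHAC2 in THP-1. Whether the lines differ was not tested, with 1 library each.

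Genes around the clusters were examined by the same rules. Of the neighbours and pseudogenes, 22 had values in HCC1937 and 21 in THP-1, 15 reached 1 FPKM and 0 were 2-fold higher or lower in either line, with a median log2 difference of 0.05 in HCC1937 (0.19 over all genes, or -0.06 and -0.08 under the other scalings) and of 0.13 in THP-1 (0.07 over all genes). By counting interval 9 were higher and 4 lower in HCC1937 and 10 and 0 in THP-1. Over the whole table, genes without reads included, 9655 of 59533 were higher and 3216 lower in HCC1937. In THP-1 5428 of 23440 were higher and 2091 lower. Intervals narrow as reads grow, so at the high levels of many neighbours small differences are called. Among the 15, ARAP3 had the largest difference in HCC1937, at 3.08 and 5.19 FPKM. TAF7, a subunit of the general transcription factor TFIID whose gene lies between the beta and gamma clusters, stood at 52.4 FPKM untreated and 61.8 with DAC in HCC1937. SLC25A2, a mitochondrial carrier gene beside it, was listed at 0 in both. DIAPH1, an actin-nucleating formin beyond the gamma end, stood at 39.6 and 49.4 FPKM, and PCDH1, a protocadherin outside the clusters, at 103.9 and 95.1.

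Genes of proteins that fold and silence the locus were examined next. Of the 14 CTCF, cohesin and related genes, 0 were 2-fold higher or lower and the median log2 difference was 0.36, with CTCF itself at 5.34 FPKM in both libraries and the cohesin subunit RAD21 at 55.2 and 74.6. In THP-1 their median was 0.05. Of 20 silencing genes that reached 1 FPKM in HCC1937, 2 were higher and 0 lower (median 0.30), a share near the 10.3% of all genes. These were DNMT3B, a de novo DNA methyltransferase (5.23 and 14.4 FPKM), and LRIF1, which binds HP1 and the silencing factor SMCHD1 (6.15 and 14.7 FPKM). SMCHD1, a repressor of this locus, stood at 3.29 and 4.14 FPKM in HCC1937 and at 8.84 and 11 in THP-1, where 0 of 21 silencing genes passed 2-fold in either direction. Of the non-clustered protocadherins and related cadherins, 1 of 6 was 2-fold higher in HCC1937, CDHR5 (0.10 and 1.48 FPKM), and 0 of 7 in THP-1. It passed the minimum through the DAC library only. Of the cytoplasmic partners and cleavage enzymes, 0 of 19 in HCC1937 and 0 of 21 in THP-1 passed 2-fold in either direction.

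The libraries carried the markers of their lines. At 1 FPKM or more, untreated HCC1937 had 13 of 13 markers of breast epithelium and 1 of 13 myeloid markers, and untreated THP-1 had 3 and 13. In the DAC library of HCC1937 4 myeloid markers reached that level, and all 13 summed to 12.6 FPKM untreated and 19.0 with DAC. By counting interval 8 of the 13 were higher and 0 lower. Of the 18313 genes up to the highest level of a clustered protocadherin, 31.6% were higher and 4.90% lower. TYROBP stood at 0 and 3.24 FPKM and CSF1R at 0.22 and 1.54, while MPO, ELANE, AZU1, LYZ and CD68 were at 0 untreated. The epithelial keratin KRT14 stood at 14.9 and 111.8 FPKM. Clustered protocadherins are best known from neurons, and of 12 neuronal markers 1 or 0 reached 1 FPKM in each library, with DCX, STMN2 and GAP43 at 0 in all 4. The summed level of the neuronal markers in HCC1937 was 2.51 FPKM untreated and 5.70 with DAC, mostly TUBB3 (1.87 and 4.75 FPKM). Fibroblast markers in HCC1937 summed to 18.8 and 33.7 FPKM, with DCN at 0 in both libraries. Of the 4 of 10 that reached 1 FPKM, COL1A1, VIM and THY1 were at least 2-fold higher, where 10.3% of all 14058 genes were. The other, FN1, was listed lower with DAC, at 9.22 and 7.73 FPKM. The part of these shifts in the protocadherin values was not tested.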

How the data were processed

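RNA sequencing was analysed in 4 libraries, 1 per group. The tools used, per the submitters' processing notes, include STAR, HTSeq, cutadapt and FastQC, and the genome build is hg38. Versions, annotation, strand use and the handling of shared exons are not given in the sources used here. No unit is named in the deposited table. FPKM, made by the authors, was inferred, since for genes with 50 to 250 exon bases (GENCODE 29) value times length falls within 0.1 of whole reads in 92.3% to 94.8% of low values. That spacing gave depths, in units of 1000000 counted reads, of 18.7, 18.7, 19.45 and 19.7, in the order HCC1937 untreated and DAC, THP-1 untreated and DAC. The planned test assumed this unit.

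From the deposited FPKM, lines of 76 repeated symbols (1079 of 60612) were left out, leaving 59533 symbols, 23440 with THP-1 values. A gene was called at 1 FPKM or more in 1 library of a pair and a 2-fold difference on log2(FPKM + 1), over the whole table. Reads per gene were estimated from FPKM, depth and GENCODE 29 exon lengths, and rounded. Counting intervals as a call rule were added after seeing the data. Members at 1 FPKM, members called, C-type genes and the highest member of each cluster were named by rule. Other members and single genes of the lists were named after their values were seen. Members and lists were chosen with earlier results of these data known. Alternatives were other scalings, filters, pseudocounts and fold limits. The procedure was tested on simulated data. Sequences are RefSeq's, on GRCh38.p14. Intervals came from scipy 1.17.1 and figures from matplotlib 3.10.9, under Python 3.11.15 with pandas 2.3.3.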

Additional observations from a re-analysis of the deposited data

Results flagged for a closer look

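PCDHA4, PCDHB5 and PCDHB10 had counting intervals on opposite sides of 1 in the 2 lines, although dose and time differ and the difference itself was not tested. The log2 difference of HCC1937 minus that of THP-1 was -0.38 for PCDHA4 (0.29 and 0.04 FPKM in HCC1937, 0.04 and 0.09 in THP-1). It was 0.62 for PCDHB5 (0.03 and 0.30 FPKM, 5.56 and 4.37 FPKM) and -0.63 for PCDHB10 (0.44 and 0.10 FPKM, 0.22 and 0.44 FPKM). PCDHA4 shares exons with 14 other coding alpha genes, and its THP-1 interval depends on its exon length of 13440 bases. PCDHA5, PCDHA13 and PCDHAC1 had the same THP-1 values with shorter exons, and their intervals span 1. PCDHB10 in THP-1 spans 1 under both other scalings.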

How the results depend on the processing

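The 2 members lower in HCC1937 by the 2-fold rule (202 of 14058 genes) were 3 under both other scalings. Of all genes, 457 of 13844 were lower under median-of-ratios and 487 of 13835 under upper-quartile scaling. Lower members were 5 with a pseudocount of 0.1, 4 with 0.5 and 5 at 1.5-fold, where 383, 275 and 833 of 14058 genes were. They were 0 at 3-fold (30 of 14058 genes) and at a 5 FPKM minimum (108 of 7809), which no member reached. By counting interval the lower members were 10 under all 3 scalings. Higher members, 0 by the 2-fold rule in both lines, were by counting interval 17 as deposited and 11 under both other scalings in HCC1937. In THP-1 they were 7 as deposited, 3 under median-of-ratios and 5 under upper-quartile scaling, with 1, 2 and 1 lower. The summed log2 difference of the HCC1937 beta cluster (-1.12) was -1.36 under median-of-ratios and -1.38 under upper-quartile scaling, and -0.84 without PCDHB8. That of the gamma cluster (0.04) was -0.22 and -0.24, and -0.18 without PCDHGC3, and that of the alpha cluster (-0.03) was 0.28 without PCDHA4. The THP-1 gamma sum (0.20) was 0.11 under median-of-ratios scaling. At 0.1 FPKM the members detected were 13 and 27 in HCC1937 (untreated and DAC) and 33 and 37 in THP-1. Both THP-1 counts include all 22 gamma genes, which share exons and mostly lay at 1 common level. At 0.5 FPKM the members detected were 5 with DAC in HCC1937, and 27 and 29 in THP-1, and at 2 FPKM 1, 5 and 5. The cause of these shifts was not tested. No paired analysis was possible because each group has 1 library. Members below about 0.1 FPKM rest on few reads.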

Other observations

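Pseudogenes within the clusters were low in all 4 libraries. PCDHGB8P, a gamma pseudogene, stood at 0.06 FPKM untreated and 0.30 with DAC in HCC1937, and at 0.31 and 0.49 in THP-1. PCDHB18P was listed at 0 and 0.10 FPKM in HCC1937 and at 0.02 and 0 in THP-1, while PCDHB17P was at 0 in both HCC1937 libraries and at 0.06 and 0.08 FPKM in THP-1.

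The 30-base stretch around the core CGCT is identical in PCDHGB4 and PCDHGB5, although PCDHGB4 stood at 0.02 and 0.09 FPKM in HCC1937 and PCDHGB5 at 3.55 and 1.43.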
